A study of Mus musculus with 4 samples.

Results

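The genes described here are the surface receptors by which cells hold on to matrix and to each other: the integrin subunits, the numbered cadherins and intercellular adhesion molecules (ICAMs), and Vcam1, Cd44, Alcam, Ncam1, L1cam and Thy1. They were chosen by symbol, with earlier results of these data known. E-cadherin (Cdh1) and the integrin-binding proteins with bp in their symbols were left out. Of 24346 symbols listed in each library, 60 were members: 18 integrin alpha subunits, 9 integrin beta subunits, the integrin beta-like gene Itgbl1, 22 cadherins, 9 adhesion molecules of the immunoglobulin superfamily and Cd44. RNA was sequenced from MC38, a mouse colorectal carcinoma line, in 2 libraries labelled WT and 2 labelled as an Arid5a gene knockout (KO). The labels give no treatment, time or clone for either group.

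An integrin is a pair of 1 alpha and 1 beta chain that spans the membrane, binds matrix proteins or other cells outside, and connects through talin and kindlin to actin inside. Cadherins join like cells in a calcium-dependent way and are tied to actin by catenins. Most immunoglobulin adhesion molecules bind themselves or an integrin on another cell. Carcinoma cells often exchange E-cadherin for N-cadherin and alter their integrin pairs when they take on a mesenchymal state.

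Expression is given as FPKM, the fragments per kilobase of transcript scaled to the mapped fragments of the library, which allows levels to be compared between genes. Depth, estimated from the steps between low values, came to about 14300000 and 11000000 fragments for the WT labels and 9600000 and 10600000 for the KO labels. Arid5a RNA did not show the loss that the labels name, with 0.225 and 0.124 FPKM under WT but 2.16 and 1.77 FPKM under KO. Values per gene show neither the protein nor an altered exon, so whether the labels are right is not settled. WT and KO below therefore mean the libraries so labelled, and a direction is that of the labels. The epithelial markers expected of a colon line were nearly silent: 0 of 10 reached a mean of 1 FPKM, Epcam and Cldn7 were at 0 in all libraries, and the 10 together summed to 0.544 to 1.13 FPKM in WT and 0.696 to 1.03 FPKM in KO. Vim, a mesenchymal filament, was at 1367 and 1343 FPKM in WT and at 1163 and 1169 FPKM in KO. Of the 10 fibroblast and mesenchymal markers listed, 7 reached a mean of 1 FPKM. Thy1, Lum and Cdh11 did not, at means of 0.0143, 0.124 and 0.469 FPKM.

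A member was called silent when its mean over the 4 libraries was under 1 FPKM, which left 20 expressed and 40 silent members. The members next to this line were Itgb7 at 1.05 and Alcam at 1.09 FPKM above it, and Itgb4 at 0.883 and Itga10 at 0.793 FPKM below it. Among the 20 expressed members, 4 were called higher and 9 lower in KO (limma, Benjamini-Hochberg adjusted p under 0.05 over all genes tested), and 7 were not called. Across all 10827 genes tested, 47.6% were called, 24.4% higher and 23.3% lower, so that calls in general were frequent. The median log2 change was -0.20 over the 20 members and 0.006 over all genes, and the median absolute change was 0.41 and 0.18. Alcam passed the 1 FPKM line only through its WT values, as did Itgb7, so these counts are a description of the list. Leaving out any 1 library, WT or KO, lowered the number of genes called over the whole table, which was 5159 with all 4 libraries. The members called changed as well in some of these fits. Cdh2 dropped out without either WT replicate and without KO replicate 1. Without WT replicate 2, Itga6 dropped out and Icam4 came in. In RNA from whole cultures, fewer cells of a kind and less RNA per cell cannot be told apart.

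**Figure D1:**
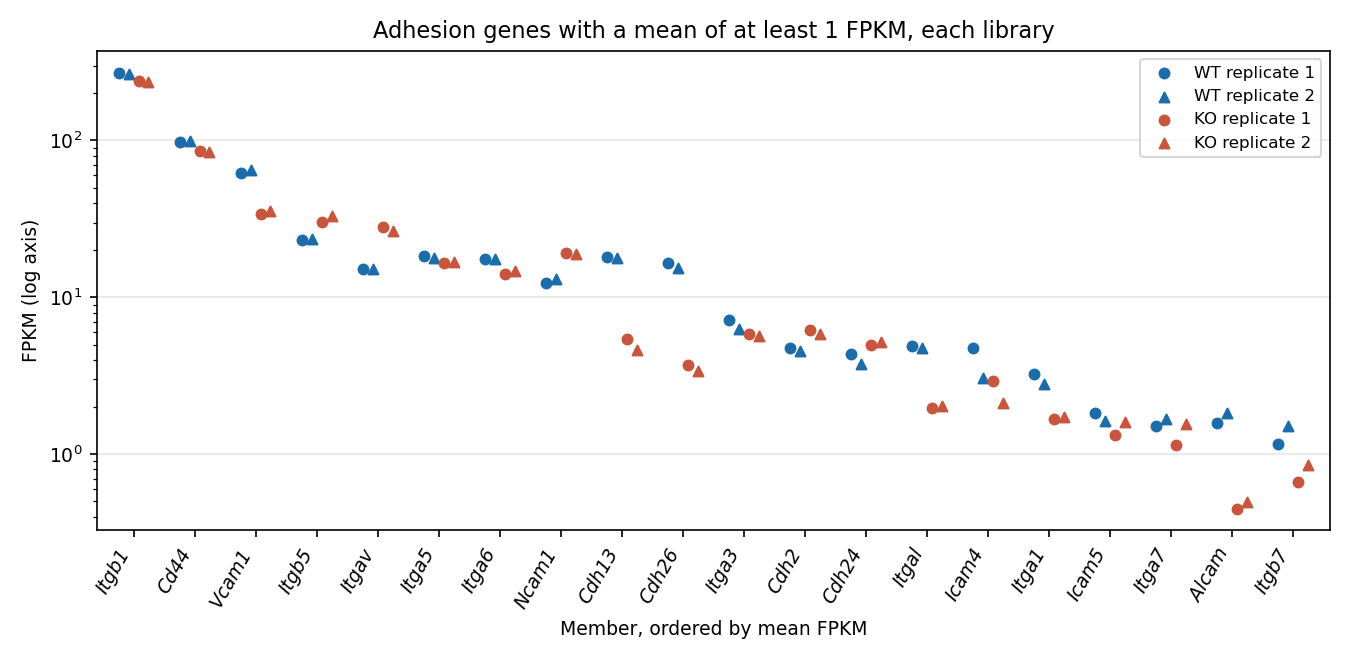
FPKM on a log axis for the 20 expressed adhesion genes, ordered by mean, with 1 point per library (blue WT, red KO, circle replicate 1, triangle replicate 2). Itgb1 stands above all others at 236 to 271 FPKM, and the groups lie farthest apart at Cdh13, Cdh26 and Alcam.

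The integrin beta chains were dominated by Itgb1, the common partner of most matrix-binding alpha chains. Itgb1 (chromosome 8, 128685654 to 128733200, plus strand, GRCm38) stood at 271 and 267 FPKM in WT and at 238 and 236 FPKM in KO. The groups did not overlap, and the fall was small, at -0.18 ± 0.026 on the log2 scale (standard error, SE, here and below; limma, adjusted p = 0.00396). Itgb1 made up 91.5% and 91.2% of the beta FPKM sum in WT and 87.9% and 86.8% in KO.

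Itgb5, which pairs with the alpha v chain to bind vitronectin, was the second beta chain (chromosome 16, 33829665 to 33949338, plus strand). It was at 23.3 and 23.4 FPKM in WT and at 30.1 and 33.0 FPKM in KO. Both KO libraries were above both WT libraries, with a log2 change of 0.42 ± 0.055 (limma, adjusted p = 0.00325). Its share of the beta sum was 7.86% and 7.99% in WT and 11.1% and 12.2% in KO. The third expressed beta chain, Itgb7, pairs with alpha 4 or alpha E on gut-homing lymphocytes. It was at 1.16 and 1.51 FPKM in WT and at 0.67 and 0.852 FPKM in KO, a difference that was not called (-0.41 ± 0.13, limma, adjusted p = 0.052).

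Among the alpha chains, Itgav differed most in FPKM, while Itgal, described below, had the larger log2 change (-0.95). Itgav (chromosome 2, 83724397 to 83806916, plus strand), the chain of receptors for ligands with an RGD motif, was at 15.1 and 15.2 FPKM in WT and at 28.1 and 26.3 FPKM in KO. All KO values lay well above all WT values, a ratio of means of 1.79 and a log2 change of 0.80 ± 0.049 (limma, adjusted p = 0.000372). The genes of chromosome 2 were shifted upward as a whole, with a median log2 change of 0.23 over 832 tested genes and 54.8% called higher. Itgav lay 0.57 above that median, and the part of the chromosome in its change was not tested. The other 3 expressed members on chromosome 2, Itga6, Cd44 and Cdh26, went the opposite way and were called lower.

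The fibronectin receptor chain Itga5 and the laminin receptor chains Itga3, Itga6 and Itga7 had lower means in KO, and only the change of Itga6 was called. Itga6 was at 17.5 and 17.6 FPKM in WT and at 14.0 and 14.7 FPKM in KO (-0.28 ± 0.048, limma, adjusted p = 0.00778). That fall was no longer called without WT replicate 2 (limma, adjusted p = 0.053). Itga5 was at 18.4 and 17.8 FPKM in WT and at 16.5 and 16.8 FPKM in KO and was not called (-0.12 ± 0.045, limma, adjusted p = 0.0837). Itga3 was likewise not called, with 7.12 and 6.33 FPKM in WT and 5.81 and 5.68 FPKM in KO (-0.19 ± 0.076, limma, adjusted p = 0.0864). Relative to the median change of its own chromosome, Itga5 was at -0.01, Itga3 at -0.10, Itga6 at -0.50 and Itga7 at -0.21. Itga7, best known from muscle, was at 1.52 and 1.67 FPKM in WT and at 1.15 and 1.56 FPKM in KO, with overlapping groups. Its exons overlap those of Mettl7b on the opposite strand, and the handling of strand is not given in the sources used here.

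Itga1, a collagen receptor chain on chromosome 13, fell from 3.26 and 2.81 FPKM to 1.68 and 1.73 FPKM (-0.57 ± 0.097, limma, adjusted p = 0.00728). The genes of chromosome 13 had a median log2 change of -0.12 and 40.6% called lower, and relative to that median Itga1 was at -0.45. Its exons overlap those of the annotated gene Gm49395 on the same strand. Itgal, the alpha L chain that forms the leukocyte receptor LFA-1 with beta 2 (chromosome 7, 127296260 to 127335138, plus strand), fell from 4.89 and 4.77 FPKM down to 1.98 and 2.04 FPKM. The log2 change was -0.95 ± 0.076 (limma, adjusted p = 0.00078), the largest fall of any integrin chain tested. Its only partner, Itgb2, was silent at 0.172 and 0.16 FPKM in WT and at 0.22 and 0.429 FPKM in KO. Of 9 leukocyte markers, 7 were below 1 FPKM on average. Cd3e, Cd4 and Itgam were at 0 in all libraries, and Ptprc, the pan-leukocyte marker CD45, was at 0.0655 and 0.0854 FPKM in WT and at 0 in both KO libraries. The 9 markers summed to 16.2 to 17.2 FPKM in WT and to 13.6 to 15.7 FPKM in KO. The other 2 were myeloid markers above the level of Itgal in WT. Cd68 fell with Itgal, from 6.14 and 5.8 FPKM to 1.03 and 1.67 FPKM (-1.58 ± 0.15, limma, adjusted p = 0.00118). Cd14 was at 9.18 and 10.1 FPKM in WT and at 12 and 13.8 FPKM in KO (0.38 ± 0.086, limma, adjusted p = 0.0175). The part of such cells in the change of Itgal was not tested.

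Summed over all 18 genes, integrin alpha expression was nearly level between the groups, at 69.9 and 68.2 FPKM in WT and 70.5 and 69.9 FPKM in KO, but its makeup differed. Itgav held 21.6% and 22.3% of the sum in WT and 39.8% and 37.6% in KO, where it was the most abundant alpha chain. Itga5 went from 26.4% and 26.2% to 23.4% and 24%, Itga6 from 25.1% and 25.9% to 19.9% and 21.0%, and Itgal from 7.0% in both WT libraries to 2.8% and 2.92%. With 2 libraries against 2, an exact two-sided permutation test of such a share cannot give a p below 0.333, so these shares are a description. Of 24 known alpha-beta pairs, 7 had both chains expressed: beta 1 with alpha 1, 3, 5, 6, 7 and v, and alpha v with beta 5. In the last pair both chains were called higher in KO. All the others hold Itgb1, which was called lower, so none of them could have both chains higher. In the pairs of beta 1 with alpha 1 and with alpha 6, both chains were called lower. FPKM says nothing of how much of each pair reaches the cell surface.

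**Figure D2:**
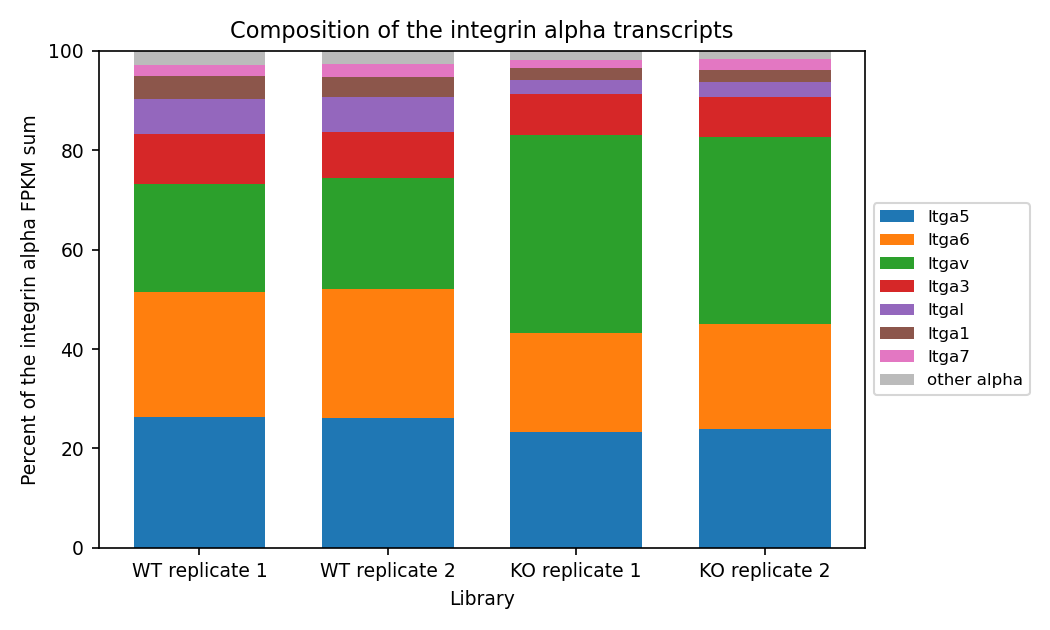
Stacked bars of the percent of the integrin alpha FPKM sum held by each expressed alpha chain, 1 bar per library, with the remaining alpha chains in grey. The Itgav segment grows from 21.6% and 22.3% in the WT libraries to 39.8% and 37.6% in the KO libraries.

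The RefSeq sequence upstream of Itgav and Itgb5 (GRCm38.p6) is shown because these 2 genes code for both chains of the pair that was higher in KO. Each line gives the 250 bases before the annotated start, 5′ to 3′, and capitals mark matches on either strand to GGGCGG (the GC box bound by Sp factors), CACCTG (an E-box bound by Snail and Zeb repressors), TGANTCA (AP-1), AATATT (an AT-rich hexamer of the kind ARID domains bind) or TATAAA (the TATA box).
Itgav, chr2:83724147-83724396, plus strand: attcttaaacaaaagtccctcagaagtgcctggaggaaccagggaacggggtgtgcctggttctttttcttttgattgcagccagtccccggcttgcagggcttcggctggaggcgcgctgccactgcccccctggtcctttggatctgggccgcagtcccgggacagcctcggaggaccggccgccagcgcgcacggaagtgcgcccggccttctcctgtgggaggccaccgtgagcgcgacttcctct
Itgb5, chr16:33829415-33829664, plus strand: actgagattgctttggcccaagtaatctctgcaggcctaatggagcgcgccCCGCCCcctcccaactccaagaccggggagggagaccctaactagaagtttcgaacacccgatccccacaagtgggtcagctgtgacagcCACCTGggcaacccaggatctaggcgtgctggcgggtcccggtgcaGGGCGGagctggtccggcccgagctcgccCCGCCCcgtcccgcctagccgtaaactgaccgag
The Itgav window held no match to any of the 5, and that of Itgb5 held 3 GC boxes and 1 CACCTG. Both were rich in G and C, at 64.4% and 65.2%, where the median of all 32851 windows was 52.4%. GGGCGG was present in 32.7% of all windows and in 9 of the 14 windows of expressed members, and CACCTG in 17.2% and in 3 of 14. TGANTCA occurred in 6.75% of all windows, TATAAA in 12.4% and AATATT in 6.17%, against 0, 0 and 2 of the 14. All windows include those of genes not expressed here, and the windows of other expressed genes were not counted apart. Itga3 had more than 1 of the 14 windows. A match is only a run of letters, and its use in these cells was not measured. The table held windows for 39 of the 60 members and 13 of the 20 expressed ones.

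The cadherins held the largest changes of all members. Cdh26, a cadherin reported in gut and airway epithelium (chromosome 2, 178430531 to 178487366, plus strand), was at 16.5 and 15.4 FPKM in WT and at 3.68 and 3.39 FPKM in KO. The groups were far apart, with a ratio of means of 0.222 and a log2 change of -1.90 ± 0.069 (limma, adjusted p = 0.000125), on a chromosome whose genes were otherwise shifted upward. Cdh13, T-cadherin, is held by a lipid anchor and lacks the tail that binds catenins (chromosome 8, 118283733 to 119324921, plus strand). It was at 18.0 and 17.8 FPKM in WT and at 5.41 and 4.62 FPKM in KO, a ratio of 0.28 and a log2 change of -1.66 ± 0.078 (limma, adjusted p = 0.000195). These 2 were the only members called with an absolute log2 change of at least 1, which 2.71% of all tested genes reached. With a pseudocount of 0.5, Itgal (-1.09) and Alcam (-1.18) passed that size as well, as they did with 0.1, which made 4 members, beside 3.38% and 4.04% of all genes. In WT Cdh26 and Cdh13 were the most abundant cadherins, and in KO Cdh2 was.

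Cdh2, N-cadherin, the classical cadherin of mesenchymal and neural cells, was at 4.78 and 4.55 FPKM in WT and at 6.22 and 5.88 FPKM in KO. It was called higher (0.31 ± 0.069, limma, adjusted p = 0.0165), but lost this call on omission of WT replicate 1 (limma, adjusted p = 0.059), of WT replicate 2 (0.0868) or of KO replicate 1 (0.0691). Cdh24, a type II cadherin that binds catenins, was at 4.36 and 3.77 FPKM in WT and at 4.97 and 5.17 FPKM in KO. Its difference was just short of the threshold (0.26 ± 0.086, limma, adjusted p = 0.0537), and it was called when the libraries were scaled to a common median (adjusted p = 0.0461). Cdh1, excluded by the choice of members, was at 0.0155 and 0 FPKM in WT and at 0.0231 and 0.0416 FPKM in KO.

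The immunoglobulin adhesion molecules were led by Vcam1, a ligand of alpha 4 integrins on leukocytes (chromosome 3, 116109949 to 116129688, minus strand). Its level was 62.4 and 64.9 FPKM in WT and at 34.1 and 35.6 FPKM in KO, the ratio of means being 0.548. All KO values were below all WT values (-0.85 ± 0.041, limma, adjusted p = 0.000202). Its partner chain Itga4 was almost absent, with no library above 0.00909 FPKM. Alcam, which binds itself and CD6 on T cells (chromosome 16, 52248996 to 52454074, minus strand), had 1.59 and 1.82 FPKM in WT and 0.45 and 0.497 FPKM in KO. The ratio of means was 0.278, while the log2 change of -0.88 ± 0.11 (limma, adjusted p = 0.00297) understates it near 1 FPKM and was -1.65 with a pseudocount of 0.1. Alcam reached a mean of 1 FPKM only through its WT values, so its fall is a description.

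Ncam1, a neural adhesion molecule that binds itself, was the 1 immunoglobulin member that rose (chromosome 9, 49502136 to 49798925, minus strand). It was at 12.4 and 13.1 FPKM in WT and at 19.2 and 19 FPKM in KO, with a log2 change of 0.55 ± 0.049 (limma, adjusted p = 0.00109). An antisense gene with overlapping exons, Gm11149, was itself at 1.16 and 1.75 FPKM in WT and at 2.28 and 3.12 FPKM in KO. The libraries were stranded, but the handling of strand in the processing is not known. Reads from the shared exon positions of these 2 genes therefore cannot be told apart here, and their part in the values was not measured. Icam4, a red cell ligand of leukocyte integrins, was at 4.75 and 3.04 FPKM in WT and at 2.92 and 2.13 FPKM in KO and was not called (-0.46 ± 0.20, limma, adjusted p = 0.116). Its log2 change was -0.20 without WT replicate 1, -0.71 and called without WT replicate 2 (limma, adjusted p = 0.0455), -0.62 without KO replicate 1 and -0.30 without KO replicate 2, so that its size is not settled by these libraries. Icam5, telencephalin, was at 1.83 and 1.62 FPKM in WT and at 1.33 and 1.61 FPKM in KO and was not called either (-0.14 ± 0.11, limma, adjusted p = 0.325), with values from -0.06 without KO replicate 1 to -0.22 without KO replicate 2. Both genes share exon positions with an annotated gene on the opposite strand, as do Vcam1 and Itgav.

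Cd44, the hyaluronan receptor, was the second most abundant member. It was at 98.1 and 98.8 FPKM in WT and at 85.4 and 84.2 FPKM in KO. The groups were separate and the fall small (-0.21 ± 0.028, limma, adjusted p = 0.00345). Its isoforms cannot be told apart in values per gene.

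**Figure D3:**
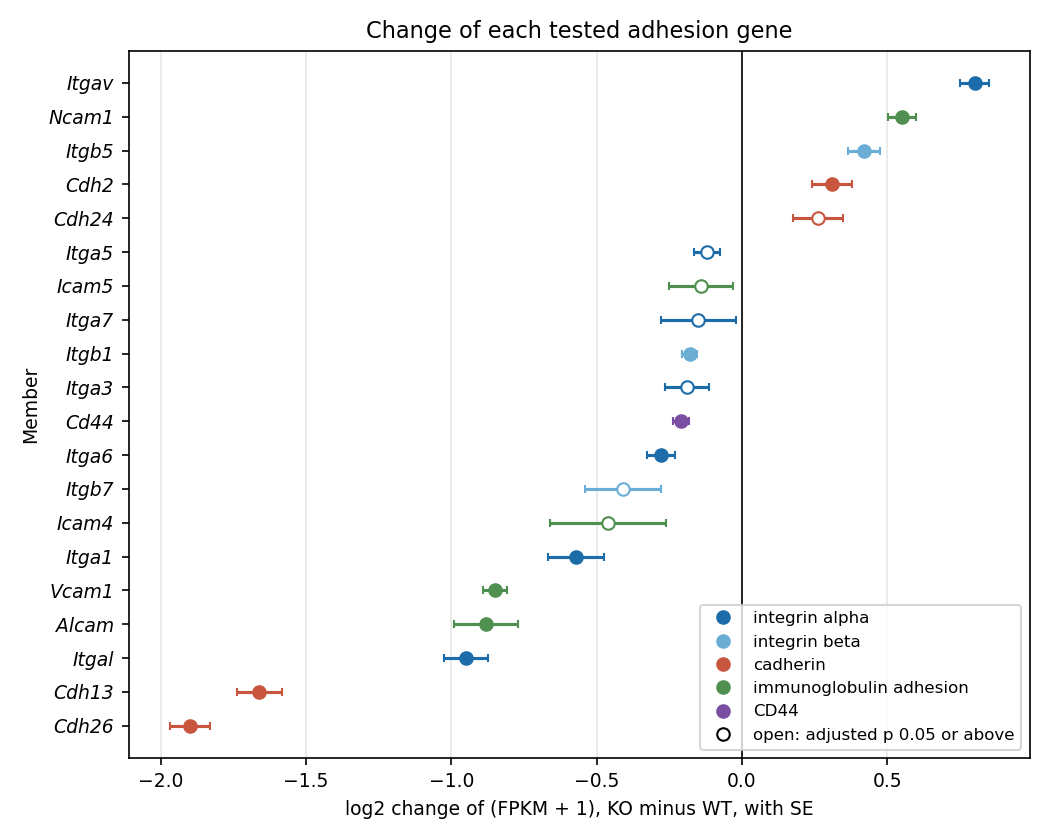
Log2 change of (FPKM + 1), KO minus WT, with its SE, for the 20 expressed members, coloured by family, with open points where the adjusted p was 0.05 or above. Cdh26 at -1.90 and Cdh13 at -1.66 lie farthest to the left, and Itgav at 0.80 and Ncam1 at 0.55 farthest to the right.

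Windows of 250 bases before the RefSeq start of Cdh26 and Alcam are shown, marked as above. These 2 genes had the lowest ratios of KO to WT among the expressed members with a window in the table. Alcam counts as expressed only through its WT values.
Cdh26, chr2:178430265-178430514, plus strand: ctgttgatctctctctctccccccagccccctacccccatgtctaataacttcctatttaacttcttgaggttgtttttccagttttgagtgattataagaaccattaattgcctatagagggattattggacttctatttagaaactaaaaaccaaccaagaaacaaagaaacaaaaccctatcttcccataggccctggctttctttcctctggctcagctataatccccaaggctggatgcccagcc
Alcam, chr16:52453082-52453331, minus strand: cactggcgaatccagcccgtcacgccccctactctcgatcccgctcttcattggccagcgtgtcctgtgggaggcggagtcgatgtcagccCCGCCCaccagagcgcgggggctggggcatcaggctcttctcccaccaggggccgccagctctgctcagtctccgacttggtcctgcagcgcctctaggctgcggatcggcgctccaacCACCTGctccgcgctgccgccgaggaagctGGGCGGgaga
The RefSeq start of Alcam lies inside the gene as GENCODE places it, so its window is upstream of that start and not of the whole gene. The first 20 bases after the start were found in a GENCODE transcript of the gene for 11 of the 14 windows of expressed members, among them those of Itgav, Itgb5 and Alcam but not that of Cdh26. The 2 windows were unlike in composition, with 42.8% G and C before Cdh26 and 69.2% before Alcam. That of Cdh26 held none of the 5 motifs, and that of Alcam held 2 GC boxes and 1 CACCTG.

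Groups were separate, both libraries of 1 label above both of the other, for 5 of the 20 expressed members on the higher side and 14 on the lower side. Over all genes tested 77.5% had separate groups, 39.4% with KO higher and 38.2% with KO lower.

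The 40 silent members comprised 11 integrin alpha chains, 6 beta chains, Itgbl1, 18 cadherins and the 4 immunoglobulin members Icam1, Icam2, L1cam and Thy1. Of these, 9 were at 0 in all libraries: Itga8, Itga9, Itgam, Itgax, Cdh7, Cdh8, Cdh9, Cdh18 and Cdh20. The other 31 were tested in a fit without the 1 FPKM filter, in which 3 were called higher and 1 lower. Among all 5364 genes under 1 FPKM in that fit, 6.08% were called higher and 5.24% lower. On the log2(FPKM + 1) scale a change of so low a gene is understated.

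Itgb4, which pairs with alpha 6 to anchor epithelial cells to laminin in hemidesmosomes, was at 0.359 and 0.541 FPKM in WT and at 1.31 and 1.33 FPKM in KO. It was called higher without the filter (0.68 ± 0.087, limma, adjusted p = 0.00842), while its partner Itga6 was lower. Cdh5, the cadherin of endothelial junctions, was at 0.431 and 0.359 FPKM in WT and at 0.797 and 0.811 FPKM in KO (0.37 ± 0.059, limma, adjusted p = 0.0146). The endothelial markers Kdr and Cldn5 were at 0 in all libraries, and the 7 endothelial markers, of which Cdh5 is 1, summed to 0.459 to 0.537 FPKM in WT and 0.876 to 0.996 FPKM in KO. Itga10, a collagen receptor chain, was at 0.902 and 0.825 FPKM in WT and at 0.704 and 0.742 FPKM in KO and was not called (limma, adjusted p = 0.266).

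The 2 other silent members that were called are named after their values were seen. Cdh6, K-cadherin, had a listed value of 0 in WT replicates 1 and 2 and of 0.762 and 0.794 FPKM in KO, which corresponds to about 13 to 60 and 15 to 69 fragments, depending on the transcript (limma, adjusted p = 0.00146). Itga2b, the platelet chain that pairs with beta 3, was at 0.766 and 0.657 FPKM in WT and at 0.301 and 0.217 FPKM in KO (-0.44 ± 0.067, limma, adjusted p = 0.0127). Icam1, the inducible ligand of LFA-1 and likewise chosen after its values were seen, was at 0.0558 and 0.109 FPKM in WT and at 0.167 and 0.563 FPKM in KO, a wide spread within KO, and was not called (limma, adjusted p = 0.189). Of the 31 silent members above 0 in some library, 14 had separate groups with KO higher and 5 with KO lower. Among the 5364 genes under 1 FPKM, likewise without those at 0 throughout, the shares were 20.9% and 18.1%. Some of the 14 rest on as few as about 1 fragment in each KO library.

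**Figure D4:**
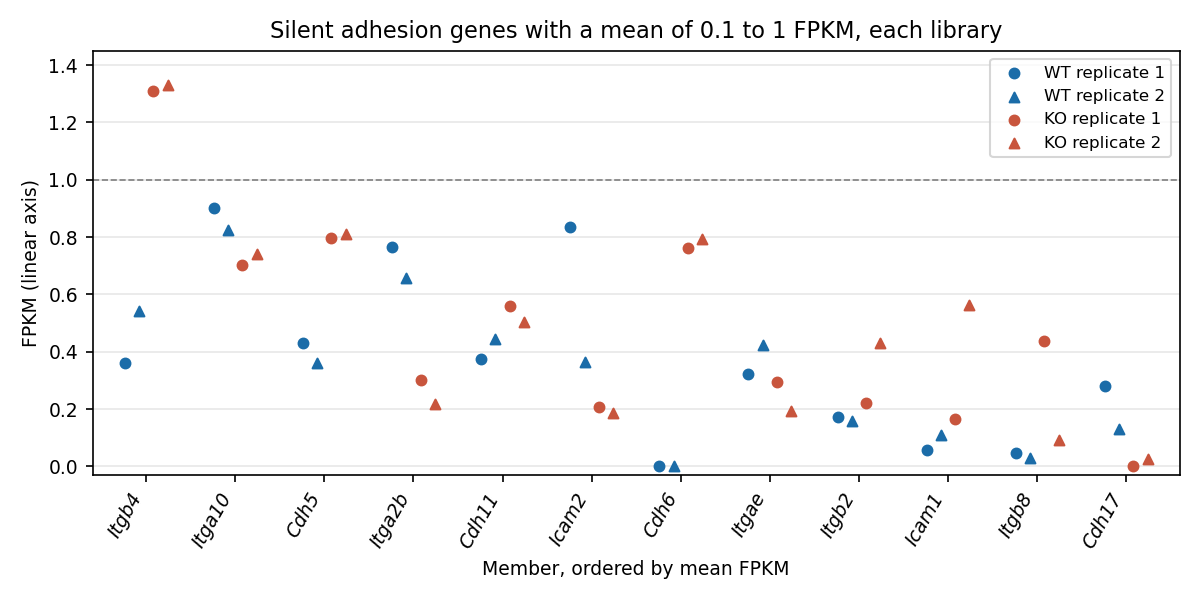
FPKM on a linear axis for silent members with a mean of 0.1 to 1 FPKM, 1 point per library, with the 1 FPKM line dashed. Itgb4 crosses that line in both KO libraries, and Cdh6 lies at 0 in both WT libraries and at 0.762 and 0.794 in KO.

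The partners inside the cell were compared from lists of their own. Of 27 tested cytoplasmic partners of integrins, 12 were higher and 6 lower in KO, with a median log2 change of 0.13. Over all genes tested these shares were 24.4% and 23.3%, so the number lower is near the background. Both numbers of partners were smaller with any 1 library left out. The rises were led by the kinase Src (0.54 ± 0.046, on chromosome 2), the adaptor Lims1 (0.51 ± 0.045), which carries integrin-linked kinase, and the actin crosslinker Actn1 (0.48 ± 0.030), at 81.7 and 81.2 FPKM in WT and 113 and 116 FPKM in KO. The falls were led by the tensins Tns2 (-0.52 ± 0.058) and Tns3 (-0.48 ± 0.052), which tie beta tails to actin, and by Sharpin (-0.33 ± 0.063), an inhibitor of integrin activation. For these 6 the highest adjusted p (limma) was 0.0108, and the call of Sharpin was lost on omission of WT replicate 1. Chromosome 15, with Tns2 and Sharpin, had a median log2 change of -0.11 and 39.5% called lower. Chromosome 11 was at -0.10 with 35.7% called lower. It holds Tns3 and, named below, Jup, Hmmr and Nf2, but also Col1a1, which was higher. Chromosome 12, with Actn1 and Tgfb3, was at 0.15 with 41.8% called higher. The part of a chromosome in these changes was not tested.

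Of 12 tested catenins and junction partners of cadherins, 7 were higher and 1 lower, beside 24.4% and 23.3% of all genes tested, with a median of 0.21. Ctnnd1, p120 catenin, which holds cadherins at the surface, was at 20 and 21.5 FPKM in WT and at 32.4 and 33.9 FPKM in KO (0.65 ± 0.052, limma, adjusted p = 0.000753). Pkp4, a related armadillo protein, rose by 0.46 ± 0.048 (limma, adjusted p = 0.00172), and both genes lie on chromosome 2. Arvcf, of the same family, was called at 0.34 ± 0.11 (limma, adjusted p = 0.0496), but not when any of the 4 libraries was left out (adjusted p from 0.0659 to 0.165). The 1 that fell was Jup, plakoglobin, a catenin shared with desmosomes, at 10.9 and 11.4 FPKM in WT and 4.07 and 4.12 FPKM in KO (-1.25 ± 0.060, limma, adjusted p = 0.000202). The number higher dropped to 4 on omission of either WT replicate.

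Integrin ligands in the matrix moved both ways, with 7 of 16 tested higher and 4 lower, beside 24.4% and 23.3% of all genes, and a median of 0.03. The number higher was smaller with any 1 library left out, while the number lower was unchanged. Higher were led by Col1a1 (1.27 ± 0.11), Col4a1 (0.89 ± 0.032), a chain of basement membrane collagen, and Tgfb3 (0.78 ± 0.063), whose latent form binds alpha v integrins. Col1a1 was at 0.275 and 0.246 FPKM in WT and at 2.14 and 1.95 FPKM in KO, and so was tested only through its KO values. Col4a1 was at 36.1 and 35.9 FPKM in WT and 66.9 and 67.9 FPKM in KO. Lower were led by Col3a1 (-1.88 ± 0.063), fibronectin Fn1 (-0.91 ± 0.028) and Tgfb1 (-0.25 ± 0.036). Fn1, the ligand of alpha 5 beta 1 and alpha v receptors, was at 176 and 179 FPKM in WT and 94.2 and 94.1 FPKM in KO. The highest adjusted p (limma) of these 6 was 0.00425.

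Around Cd44, 3 of 7 tested partners were higher and 2 lower, beside the same 24.4% and 23.3%, with a median of 0.00. Ezrin (Ezr, 0.31 ± 0.036), radixin (Rdx, 0.28 ± 0.029) and moesin (Msn, 0.17 ± 0.028), which link the Cd44 tail to actin, rose together, with adjusted p (limma) of 0.00216, 0.00157 and 0.00641. Hmmr, a hyaluronan-binding protein of the mitotic spindle, fell by 0.41 (SE 0.035, limma, adjusted p = 0.000921). Nf2, merlin, was called at -0.16 ± 0.035 (limma, adjusted p = 0.015), a call lost on omission of either WT replicate or of KO replicate 1 (adjusted p from 0.0613 to 0.0804), so that the count of falls was then 1.

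**Figure D5:**
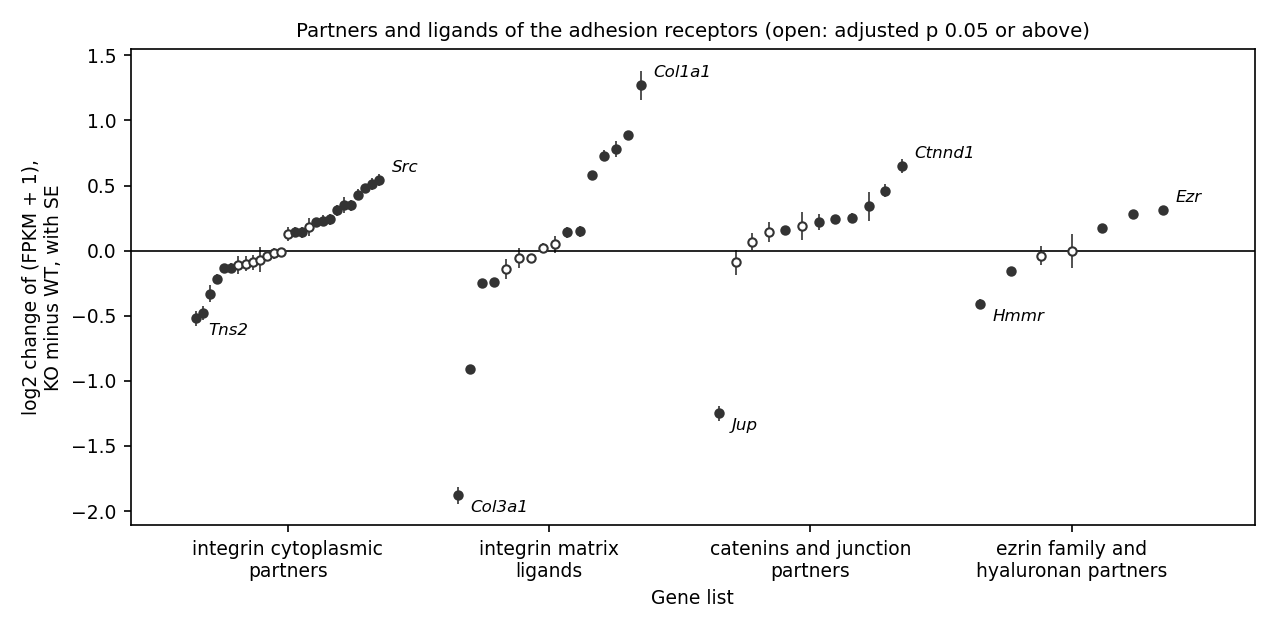
Log2 change of (FPKM + 1), KO minus WT, with its SE, for the tested genes of 4 lists, 1 point per gene in rising order, open where the adjusted p was 0.05 or above. The lowest and highest gene of each list are named, from Col3a1 at -1.88 to Col1a1 at 1.27.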

How the data were processed

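The authors deposited FPKM values, 1 table per library. The submitters' processing notes name Cufflinks 2.2.1, SAMtools 0.1.19, Bowtie2 2.2.3 and TopHat2 2.0.13, and build mm10; settings, annotation and strand handling are not given in the sources used here. Per the labels' protocols the libraries were stranded mRNA libraries. Low FPKM values gave the relative depth (1.0, 0.767, 0.67 and 0.743), but Cufflinks sums isoforms of different length, so whole reads were not recovered and no count model was used.

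Members, lists and tests were chosen with earlier results of these data known. The test was limma 3.58.1 (R 4.3.3) on log2(FPKM + 1), for genes whose mean reached 1 FPKM, with a mean-variance trend, two-sided and without a block. The call threshold was 0.05 for the p adjusted over all genes by the Benjamini-Hochberg method. The fit was tested on simulated data. Every expressed member, the silent members from 0.5 to 1 FPKM and up to 3 called genes per direction of each list are named. The lists also held fibroblast and mesenchymal markers, whose 10 genes summed to 1389 to 1417 FPKM in WT and 1189 to 1196 FPKM in KO. Most of that sum was Vim alone. Of 7 tested, Col1a1 and Cdh2 were higher and Col3a1, Dcn (-1.70 ± 0.13) and Vim (-0.22 ± 0.024) lower. Dcn, at 5.13 and 4.53 FPKM in WT and 0.613 and 0.993 FPKM in KO, was tested only through its WT values. Positions came from GENCODE M21 and RefSeq (GRCm38). The sources used here do not state separate cultures for the 2 libraries of a group, so p-values measure the spread between these libraries, which may be technical. A listed marker gene is not reported here. Python 3.11.15 read the files, and 14 alternatives were run.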

Additional observations from a re-analysis of the deposited data

How the results depend on the processing

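All 20 expressed members kept their direction in each of 14 alternatives (a filter of 5 FPKM leaves out those below it), and 15 also kept their side of the threshold. The number of genes called was 3216 to 3974 with 1 library left out, against 5159. The set of members called also changed in some of these fits, as given for Cdh2, Itga6 and Icam4. Beyond the calls lost as given for Cdh2 and Itga6, Cdh24 was called with quantile normalization (adjusted p = 0.0481), robust moderation (0.0401) and no trend (0.0466), and Itgb7 with robust moderation (0.0374) and no trend (0.0361). With 1 library left out, the uncalled changes ranged from -0.27 to -0.12 for Itga3, -0.27 to -0.02 for Itga7, -0.52 to -0.30 for Itgb7 and 0.18 to 0.35 for Cdh24. Cd14 was not called without WT replicate 1 (0.0917) or KO replicate 2 (0.0618). Arvcf was not called with either other pseudocount, with no filter or with the block (adjusted p from 0.0525 to 0.0681). Rescaling moved the median change of all genes by at most 0.009. The shared replicate numbers pair nothing in the labels, and deviations of same-numbered libraries had a correlation of 0.138 across genes. With the replicate number as a block, 4673 genes were called, with 4 members higher and 10 lower, Icam4 being the added one (adjusted p = 0.0291). For the silent members, whose values rest on few fragments, depth limits what can be seen.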
